A study of Mus musculus with 69 samples.

Results

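Interferon-stimulated genes are described here across the lungs of mice that had received titanium dioxide nanoparticles. The group was a list of 39 mouse genes chosen by name, and each array probe was assigned through the transcript identifier in the scanner files. A total of 37 genes had a matched probe, with 54 of the 41174 probes on the array. Mx1 and Mx2 had none and are not reported. All 37 genes passed the filter on dim probes, in a table of 17628 genes tested.

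Female C57BL/6 mice, bought at an age of 5 to 7 weeks and acclimatised for 1 to 3 weeks, received a single intratracheal instillation. The groups were vehicle (labelled H2O, and described in the design text as water with 2% serum), NRCWE-001, a titanium dioxide nanoparticle without added charge, and NRCWE-002, a positively charged titanium dioxide nanoparticle, each particle at 18, 54 or 162 µg per mouse. Lungs were taken after 24 h, called day 1, or on day 28. There were 5 animals in each of the 14 groups, except for 4 in vehicle day 28, giving 69 arrays with 1 lung each. RNA came from a small piece of frozen lung, so each value describes that piece, and in whole tissue fewer cells of a type and less RNA per cell cannot be told apart. The labels give a separate mouse for each array.

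Lung RNA was labelled with Cy5 and hybridised against a common reference RNA in Cy3, and every level below is the log2 ratio of lung over reference. A log2 fold change is the difference between the mean log2 ratios of 2 groups, with its standard error (SE). Between 60.8 and 87.6% of probes were well above background in the lung channel of an array, and no probe was saturated. The surfactant gene Sftpc, which marks alveolar epithelium, was well above background on all 69 arrays, with a mean log2 ratio of 7.41. The number of arrays in each group limits the precision of all values.

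Type I interferons are secreted when a cell detects viral or other nucleic acid, and interferons act on neighbouring cells through receptors coupled to JAK kinases. Type I interferons activate a complex that includes STAT2 and IRF9 and binds interferon-stimulated response elements (ISREs) in promoters, whereas interferon gamma acts mainly at gamma-activated sites (GAS). The genes switched on in this way block viral translation, degrade viral RNA, trap virus particles and increase antigen presentation, and several of them feed back on the pathway.

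Promoter sequence was examined first, because the ISRE is a property of these genes that does not depend on the arrays. RefSeq windows (GRCm38.p6, 250 bases before to 50 bases after each start site) were held for 30 members. The ISRE core GAAANNGAAA, or TTTCNNTTTC on the opposite strand, was found in 18 of the 36 windows of these members (17 of the 30 genes), and in 1131 of all 32851 windows (3.44%). The GAS letters TTCNNNGAA, which read the same on both strands, were found in 9 of the 36 windows, and in 2726 of all windows (8.3%). A match is a description of letters and not a bound site. The upstream 150 bases are shown for 6 of the members described further below. They are read 5′ to 3′ on the strand of the gene and end at the base before the start site. Every ISRE core match is in capitals, with overlapping matches joined.
Isg15, chr4:156200819-156200968, minus strand: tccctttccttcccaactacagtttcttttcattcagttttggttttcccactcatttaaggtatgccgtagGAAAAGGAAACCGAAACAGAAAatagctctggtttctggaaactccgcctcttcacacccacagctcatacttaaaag
Ifit1, chr19:34640739-34640888, plus strand: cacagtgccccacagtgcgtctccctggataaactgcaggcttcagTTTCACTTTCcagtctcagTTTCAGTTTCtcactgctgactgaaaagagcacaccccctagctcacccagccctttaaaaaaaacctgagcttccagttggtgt
Oas1a, chr5:120907526-120907675, minus strand: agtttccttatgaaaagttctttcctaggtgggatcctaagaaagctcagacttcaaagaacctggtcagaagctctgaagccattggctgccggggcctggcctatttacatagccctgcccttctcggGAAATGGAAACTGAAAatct
Rsad2, chr12:26456453-26456602, minus strand: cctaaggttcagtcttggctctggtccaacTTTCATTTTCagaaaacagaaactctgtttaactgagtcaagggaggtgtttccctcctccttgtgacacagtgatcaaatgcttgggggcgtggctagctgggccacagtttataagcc
Igtp, chr11:58199406-58199555, plus strand: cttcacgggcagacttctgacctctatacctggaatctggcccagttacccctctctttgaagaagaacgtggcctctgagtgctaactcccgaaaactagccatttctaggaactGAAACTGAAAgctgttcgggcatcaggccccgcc
Irf7, chr7:141266425-141266574, minus strand: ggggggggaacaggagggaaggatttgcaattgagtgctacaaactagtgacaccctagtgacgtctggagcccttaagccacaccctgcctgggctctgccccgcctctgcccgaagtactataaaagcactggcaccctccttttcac

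Isg15 held 3 overlapping matches that began 78, 72 and 66 bases before the start site, and Oas1a held 2 that began 20 and 14 bases before it. Ifit1 held 2 separate matches, while Rsad2 and Igtp held 1 each. Irf7 had none, which says only that these letters are not in the window shown. Zbp1 has no window listed. Among members not shown, the windows of Oasl1, Oasl2 and Ifi44 held no match, and those of Gbp2 and Oas1g held 1 and 2. Whether matches go with the differences described below was not tested. The windows of Psmb9 and Tap1 overlap by 275 bases on opposite strands, so these 2 members share most of their sequence.

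The main pattern in the data was a difference between lungs within the same group on day 28. At 162 µg, 3 of the 5 lungs given either particle had most of the 37 genes well above every vehicle lung, and the other 2 lungs of each group lay near vehicle. A score was formed for each lung as the mean over the 37 genes of the log2 ratio minus its mean in the vehicle lungs of the same day. The 4 vehicle lungs on day 28 scored from -0.06 to 0.03. The 5 lungs given 162 µg NRCWE-001 scored 0.99, 0.05, 0.02, 1.29 and 1.46 (mean 0.76 ± 0.69, SD, n = 5). The 5 lungs given 162 µg NRCWE-002 scored -0.10, 1.51, -0.10, 1.51 and 1.34 (mean 0.83 ± 0.86, SD, n = 5). No lung of either group scored between 0.05 and 0.99.

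Below the highest dose on day 28, a score of this size was seen in a single lung. At 54 µg NRCWE-002 the 5 scores were 1.28, 0.07, 0.24, 0.01 and 0.08, so replicate 1 alone reached the level of the 6 high lungs at 162 µg. At 18 µg NRCWE-002 replicate 1 scored 0.46 and the other 4 lungs scored from -0.18 to 0.16. The lower doses of NRCWE-001 on day 28 averaged -0.06 ± 0.09 at 18 µg and -0.07 ± 0.16 at 54 µg (SD, n = 5 each). Over all 69 lungs, 7 scored 0.99 or more, all of them on day 28, and the next highest lung scored 0.69. These 7 arrays lay on 7 different slides and 6 scan days.

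**Figure D1:**
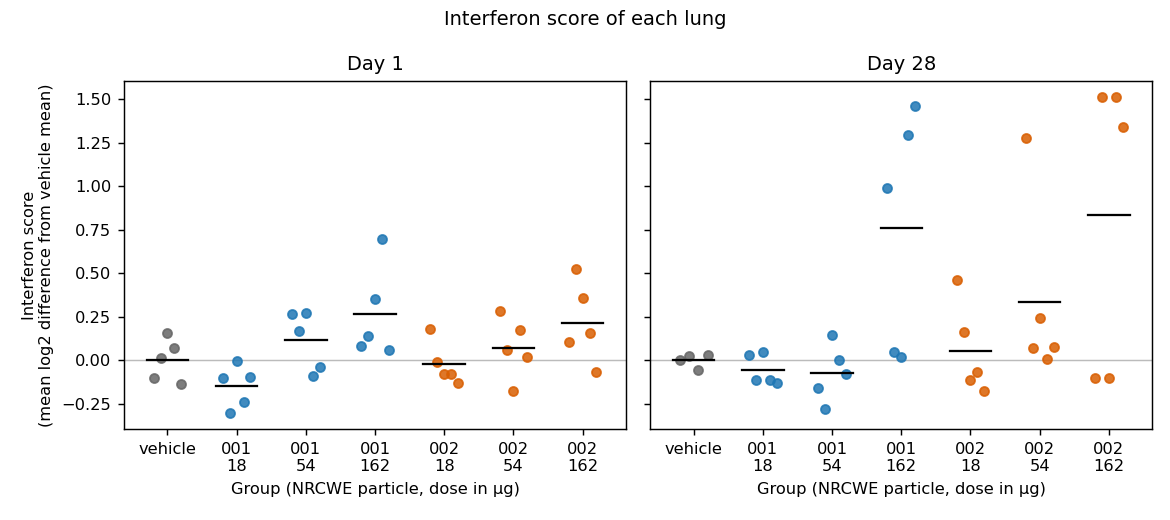
Interferon score of each lung (y axis, mean over 37 genes of the log2 difference from the vehicle mean of the same day) by group (x axis, particle and dose in µg), with a point for each lung and a line for each group mean. On day 28 at 162 µg, 3 of 5 lungs per particle lie at 0.99 or above and the other 2 lie at 0.05 or below.

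Within each of these lungs most of the genes were high together. With 162 µg NRCWE-001, replicates 1, 4 and 5 had 29, 33 and 34 of the 37 members above every day 28 vehicle array, beside 25.1, 21.5 and 20.5% of all genes. The same lungs had 18, 22 and 25 members more than 2-fold above the vehicle mean, beside 0.766, 1.3 and 1.27% of all genes. With 162 µg NRCWE-002, replicates 2, 4 and 5 had 34, 34 and 33 members above every vehicle array, beside 30.8, 20.2 and 22.1% of all genes. They had 24, 24 and 23 members more than 2-fold above the vehicle mean, beside 5.98, 1.64 and 0.868% of all genes.

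The other 4 lungs at 162 µg showed no such excess. Replicates 2 and 3 of NRCWE-001 had 8 and 7 members above every vehicle array (22.5 and 18.8% of all genes), and replicates 1 and 3 of NRCWE-002 had 3 and 5 (15.2 and 19.4% of all genes). None of the 4 had a member more than 2-fold above the vehicle mean, beside 0.698, 0.363, 0.238 and 0.142% of all genes.

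Slides were shared between high and flat lungs. Slide 11 held a lung given NRCWE-001 that scored 0.02 beside a lung given NRCWE-002 that scored 1.34. On slide 14 the lung given 54 µg NRCWE-002 scored 1.28 above the vehicle lung of the same slide, and the lung given 162 µg scored -0.10 against the same vehicle. Few lungs at 162 µg on day 28 had a vehicle array of that day on their slide. Of those with high scores only replicate 1 of NRCWE-001 did, and it scored 0.96 above that vehicle. Replicate 3 of NRCWE-002 scored -0.13 against its own. The other high lungs at 162 µg could not be compared with vehicle within their slides. In sums of squares, the slide took up a median of 26.4% of the spread within groups among members, against 54.6% over all genes. Members ranged from 16.2% in Oas2 to 68.8% in Tap1. These shares were not adjusted for the number of slides (18), so part of each would be seen with no effect of slide. The median SD within groups was 0.40 for members and 0.18 for all genes, and 33 members were above the all-gene median, from 0.12 in Oas1g to 0.94 in Irf7.

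No member was called at an adjusted p below 0.05 against vehicle in limma's test over all 17628 genes, at any dose, particle or day. On day 28 the share of all genes called was 0.193, 0.00567 and 0.0511% at 18, 54 and 162 µg NRCWE-001, and 0, 0 and 0.00567% for NRCWE-002. On day 1 it was 0, 0 and 0.624% for NRCWE-001 and 0, 0.113 and 0.59% for NRCWE-002. The test over the 3 doses together also called 0 members, with 0.879 and 0.771% of all genes called on day 1 and 0.686 and 0% on day 28 (NRCWE-001 and NRCWE-002). The counts at 162 µg on day 28 turned on the lungs near vehicle: 8 members were called without replicate 3 of NRCWE-001 and 2 without its replicate 2, and 16 were called without replicate 1 of NRCWE-002 and 13 without its replicate 3. In all, 98, 64, 65 and 54 of the 17628 genes were called in these 4 fits. The count of 0 for the 3 doses of NRCWE-001 on day 28 depended on the fit too: it was 9 with slide as a random block (594 genes in all), 10 with the lung channel alone (287 genes), and 17 without replicate 2 or without replicate 3 of the 162 µg group (314 and 282 genes). All 3 dose groups of both particles share the vehicle arrays of their day.

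At an unadjusted p below 0.05, 27 of 37 members were higher at 162 µg NRCWE-001 on day 28, where 4.03% of all genes were, and 30 of 37 at 162 µg NRCWE-002, where 3.01% of all genes were. No member was lower by this measure, beside 3.31 and 4.26% of all genes. In the test over the 3 doses on day 28, 29 and 30 members passed the unadjusted p, beside 8.73 and 4.61% of all genes, and on day 1 the counts were 2 and 0, beside 8.53 and 8.57%. With NRCWE-001 the median log2 fold change of the members at 162 µg on day 28 was 0.73, and with NRCWE-002 it was 0.78. Values were above 0 in 36 and 35 members, while the medians over all genes were 0.0023 and -0.0097. A total of 11 and 12 members were more than 2-fold higher, 10 of them with both particles. The share of all genes was not counted for this measure.

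The lower doses gave few differences. At 54 µg NRCWE-002 on day 28 the median was 0.31, and 3 members passed the unadjusted p as higher, beside 2.17% of all genes. Without replicate 1 that median was 0.07. At 18 µg NRCWE-002 no member was higher by this measure (2.83% of all genes), nor at 18 or 54 µg NRCWE-001 on day 28 (2.9 and 1.41%). On day 1 there was none at 18 and 54 µg of NRCWE-001 (3.67 and 3.08%) or of NRCWE-002 (2.47 and 3.44%). As lower, 2 members passed at 18 µg NRCWE-001 on day 1 (1.61% of all genes) and 1 at 54 µg NRCWE-001 on day 28 (1.17%).

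**Figure D2:**
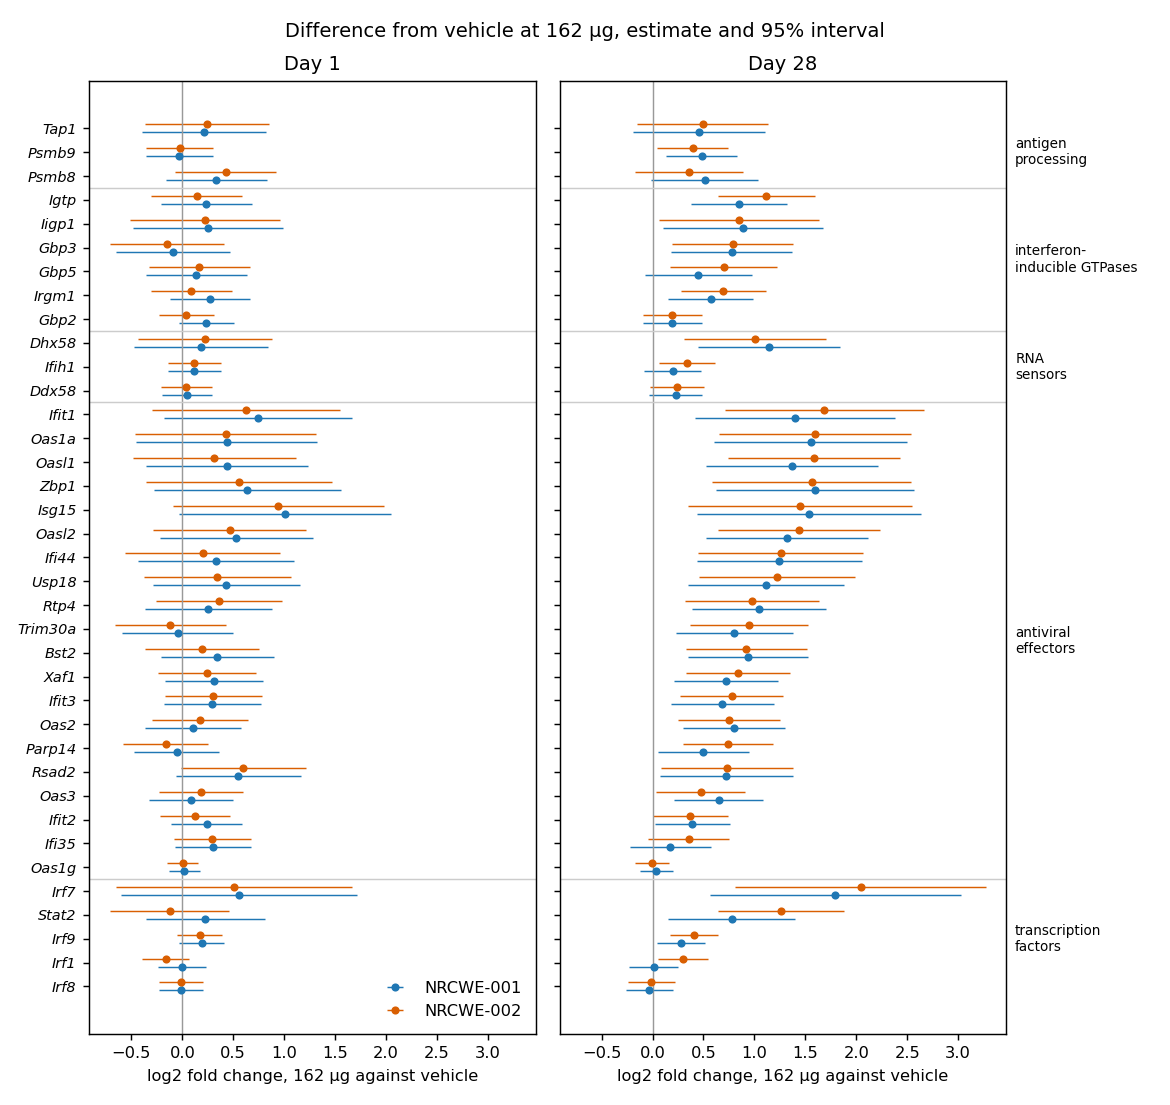
Log2 fold change (x axis) of each member (y axis, grouped by role) at 162 µg against vehicle, with a point for the estimate and a bar for its 95% interval, for both particles on day 1 and day 28. The day 28 values reach 2.04 in Irf7, whereas Irf1 and Irf8 stay between -0.03 and 0.29 and the largest day 1 value is 1.01 in Isg15.

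Transcription factors of the pathway were unequal. Irf7, which amplifies type I interferon transcription and is itself induced by interferon, had the largest log2 fold change of all members at 162 µg on day 28. Its vehicle lungs had log2 ratios of -1.79, -0.97, -1.74 and -1.74. With 162 µg NRCWE-001 the 5 lungs measured 1.32, -0.82, -1.96, 0.97 and 1.68, and with NRCWE-002 they measured -1.76, 3.52, -1.83, 1.32 and 1.16. The same 3 lungs of each group as in the score lay far above every vehicle lung. Replicate 2 of NRCWE-001 lay just above the highest vehicle lung and the other 3 lay within or just below the vehicle range, so the groups overlapped. In log2 fold change the means differed by 1.80 ± 0.61 (SE, adjusted p = 0.356, limma, 3.47-fold) and 2.04 ± 0.61 (SE, adjusted p = 0.326, limma, 4.12-fold). Without replicate 2 of NRCWE-002 the second value was 1.28.

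Stat2, the partner of IRF9 at the ISRE, had vehicle log2 ratios of 0.90, 0.20, 0.77 and 0.97 on day 28. It measured 1.46, 0.70, 0.97, 2.13 and 2.19 with 162 µg NRCWE-001, and 0.75, 3.37, 1.01, 2.80 and 1.93 with 162 µg NRCWE-002. The lungs with high Irf7 were the highest for Stat2 too. Log2 fold changes of Stat2 were 0.78 ± 0.31 (SE, adjusted p = 0.490, limma) and 1.26 ± 0.31 (SE, adjusted p = 0.120, limma).

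The other 3 factors had smaller differences. Irf9, the DNA-binding partner of STAT2, had vehicle log2 ratios of 0.72, 0.83, 0.72 and 0.69 on day 28. It measured 1.24, 0.59, 0.78, 1.18 and 1.32 with 162 µg NRCWE-001, and 0.84, 1.67, 0.67, 1.43 and 1.13 with 162 µg NRCWE-002. In 7 of these 10 lungs Irf9 was above every vehicle lung, including all 6 with high scores, and the log2 fold changes were 0.28 and 0.41. In single lungs of these 10, 15.2 to 30.8% of all genes were above every vehicle lung. The 2 probes of Irf9 disagreed, with 0.10 and 0.46 for NRCWE-001 and 0.17 and 0.65 for NRCWE-002. Irf1, an early factor induced by interferon gamma, measured 0.01 and 0.29. Irf8, which is expressed mainly in myeloid and B cells, measured -0.03 and -0.01. The 2 probes of Irf8 had opposite signs, with 0.09 and -0.15 for NRCWE-001 and 0.14 and -0.16 for NRCWE-002. Irf1 and Irf8 were each above every vehicle array in only 3 of the 10 lungs at 162 µg.

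The antiviral effectors made up 20 of the 37 members, and at 162 µg on day 28 their median log2 fold changes were 0.87 (NRCWE-001) and 0.93 (NRCWE-002). A total of 18 of the 20 passed the unadjusted p with each particle, and 0 the adjusted one. Isg15, a ubiquitin-like protein that is conjugated to other proteins during viral infection, had vehicle log2 ratios of -1.05, -0.36, -0.95 and -0.92. It measured 1.95, -0.75, -1.04, 1.51 and 1.92 with 162 µg NRCWE-001, and -1.33, 1.71, -1.48, 2.22 and 2.01 with 162 µg NRCWE-002. No lung of these groups lay between -0.75 and 1.51. Against vehicle the log2 fold changes were 1.54 ± 0.55 (SE, adjusted p = 0.394, limma, 2.90-fold) and 1.45 ± 0.55 (SE, adjusted p = 0.545, limma, 2.73-fold).

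Oas1a, a synthetase of the 2-5A messenger that activates RNase L, followed the same lungs. Its vehicle values were -0.998, -0.58, -0.96 and -1.03. It measured 1.73, -0.86, -1.01, 1.61 and 1.83 with 162 µg NRCWE-001, and -1.15, 2.61, -1.18, 1.75 and 1.48 with 162 µg NRCWE-002. The 6 high values exceeded all vehicle values and the other 4 lay within or just below their range. These gave log2 fold changes of 1.55 ± 0.47 (SE, adjusted p = 0.261, limma) and 1.59 ± 0.47 (SE, adjusted p = 0.326, limma).

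Zbp1, a sensor of Z-form nucleic acid that can trigger necroptosis, measured 0.16, -0.26, -0.15 and 0.13 in vehicle lungs. It measured 1.53, 0.35, 0.50, 2.60 and 2.85 with 162 µg NRCWE-001, and -0.26, 2.83, 0.01, 2.53 and 2.54 with 162 µg NRCWE-002. All 5 lungs given NRCWE-001 were above all vehicle lungs, including the 2 with low scores. Zbp1 thus had log2 fold changes of 1.60 ± 0.49 (SE, adjusted p = 0.261, limma) and 1.56 ± 0.49 (SE, adjusted p = 0.370, limma).

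Ifit1, which binds viral RNA that lacks host cap methylation, measured -0.33, -1.24, -0.30 and -0.12 in vehicle lungs. It measured 0.56, -0.28, -0.31, 2.21 and 2.33 with 162 µg NRCWE-001, and -0.63, 1.53, -0.43, 3.06 and 2.41 with 162 µg NRCWE-002. Rsad2 (viperin), which makes a chain-terminating nucleotide, measured 0.16, 0.51, 0.09 and 0.48 in vehicle lungs, with 1.13, 0.26, 0.07, 1.62 and 2.09 for NRCWE-001 and -0.26, 2.17, 0.15, 1.81 and 1.32 for NRCWE-002. In both genes the same 3 lungs of each group were above all vehicle lungs. The log2 fold changes were 1.40 ± 0.49 and 1.69 ± 0.49 for Ifit1 (SE, adjusted p = 0.370 and 0.326, limma) and 0.72 ± 0.32 and 0.73 ± 0.32 for Rsad2 (SE, adjusted p = 0.594 and 0.621, limma).

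The remaining effectors at 162 µg on day 28 ranged widely. Oasl1 and Oasl2, relatives of the OAS enzymes, had log2 fold changes of 1.37 and 1.32 with NRCWE-001 and of 1.58 and 1.44 with NRCWE-002. Ifi44 measured 1.24 and 1.26, and Usp18, which removes ISG15 from its targets and restrains the type I receptor, measured 1.11 and 1.22. Ifit2, Ifit3, Oas2, Oas3, Bst2, Xaf1, Rtp4, Parp14 and Trim30a lay between 0.37 and 1.04, and Ifi35 measured 0.17 and 0.35. The 2 probes of Oas2 disagreed, with 0.17 and 0.13 (NRCWE-001 and NRCWE-002) for a probe well above background on 9 of the 69 arrays, and 1.43 and 1.38 for a probe above it on all 69. Oas1g was not well above background on any vehicle array and on at most 2 of the 5 arrays in an exposed group, so no fold is given for it.

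**Figure D3:**
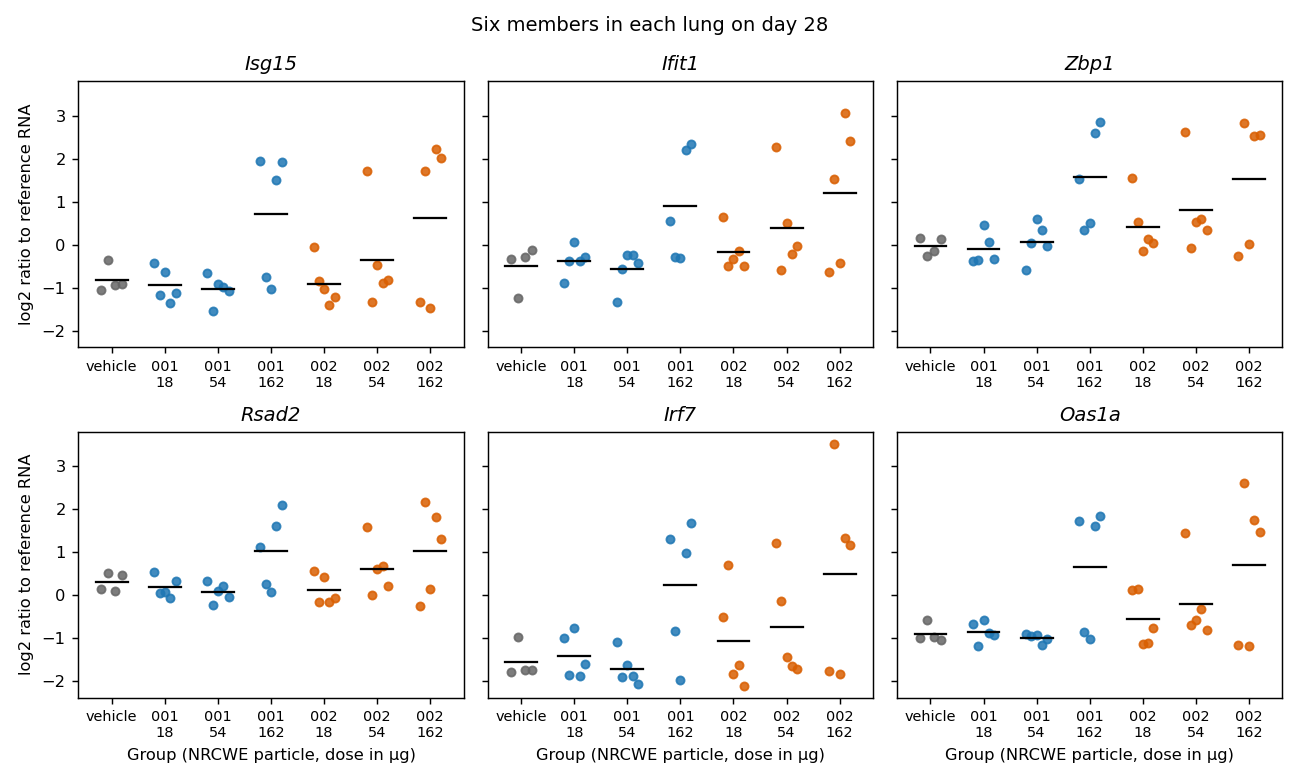
Log2 ratio to reference RNA (y axis) of Isg15, Ifit1, Zbp1, Rsad2, Irf7 and Oas1a in each day 28 lung by group (x axis, particle and dose in µg), with a point for each lung and a line for the group mean. At 162 µg no Isg15 value lies between -0.75 and 1.51.

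Among the RNA sensors, Dhx58 (LGP2), which modulates the others, had log2 fold changes of 1.15 and 1.01 at 162 µg on day 28 (adjusted p = 0.261 and 0.428, limma). It also had an adjusted p of 0.0604 in the test over all doses of NRCWE-001 on day 28. The sensor helicases Ifih1 (MDA5) and Ddx58 (RIG-I) measured 0.20 and 0.23 for NRCWE-001 and 0.34 and 0.24 for NRCWE-002. Probes of these 2 genes disagreed, with values for NRCWE-001 from -0.03 to 0.70 over the 4 probes of Ddx58 and of -0.15 and 0.54 over the 2 probes of Ifih1.

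The interferon-inducible GTPases, which take part in defence against intracellular microbes, had medians of 0.67 and 0.74 over 6 genes at 162 µg on day 28. Igtp (Irgm3) had the lowest adjusted p of all members. Its vehicle lungs measured 1.43, 0.85, 0.99 and 1.30, against 1.76, 1.37, 1.84, 2.51 and 2.48 with NRCWE-001 and 1.51, 2.78, 1.45, 2.72 and 2.84 with NRCWE-002. With NRCWE-002 all 5 lungs were above all vehicle lungs, and with NRCWE-001 4 of 5 were. Igtp log2 fold changes were 0.85 ± 0.24 (SE, adjusted p = 0.210, limma) and 1.12 ± 0.24 (SE, adjusted p = 0.0594, limma).

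Of the other GTPases, Gbp3, Gbp5, Irgm1 and Iigp1 had log2 fold changes from 0.45 to 0.89, while Gbp2 measured 0.19 with each particle. Gbp2 was above every vehicle array in 8 of the 10 lungs at 162 µg, although its differences were small. In single lungs of these 10, 15.2 to 30.8% of all genes were above every vehicle array. The 3 antigen processing genes, Psmb8 and Psmb9 of the immunoproteasome and Tap1 of the peptide transporter, measured between 0.36 and 0.51. Only Psmb9 passed the unadjusted p, with both particles.

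Groups that did not overlap were few. All 5 lungs given 162 µg NRCWE-001 on day 28 exceeded all vehicle lungs in 2 members, Oasl2 and Zbp1, which was seen in 0.851% of all genes. For 162 µg NRCWE-002 this held for Igtp alone, beside 0.511% of all genes. Members differed in how many of the 10 lungs at 162 µg exceeded every vehicle lung, from 9 for Igtp and 8 for Oasl2, Zbp1 and Gbp2 down to 3 for Irf1, Irf8, Oas1g, Ifi35 and Psmb8. In single lungs of these 10, 15.2 to 30.8% of all genes exceeded every vehicle lung, so a count of 3 is near the upper end of that share. These counts over the 10 lungs were not made for all genes. In replicate 1 at 54 µg NRCWE-002, the members not above every vehicle lung were Irf1, Oas1g, Ifi35, Psmb8 and Tap1.

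**Figure D4:**
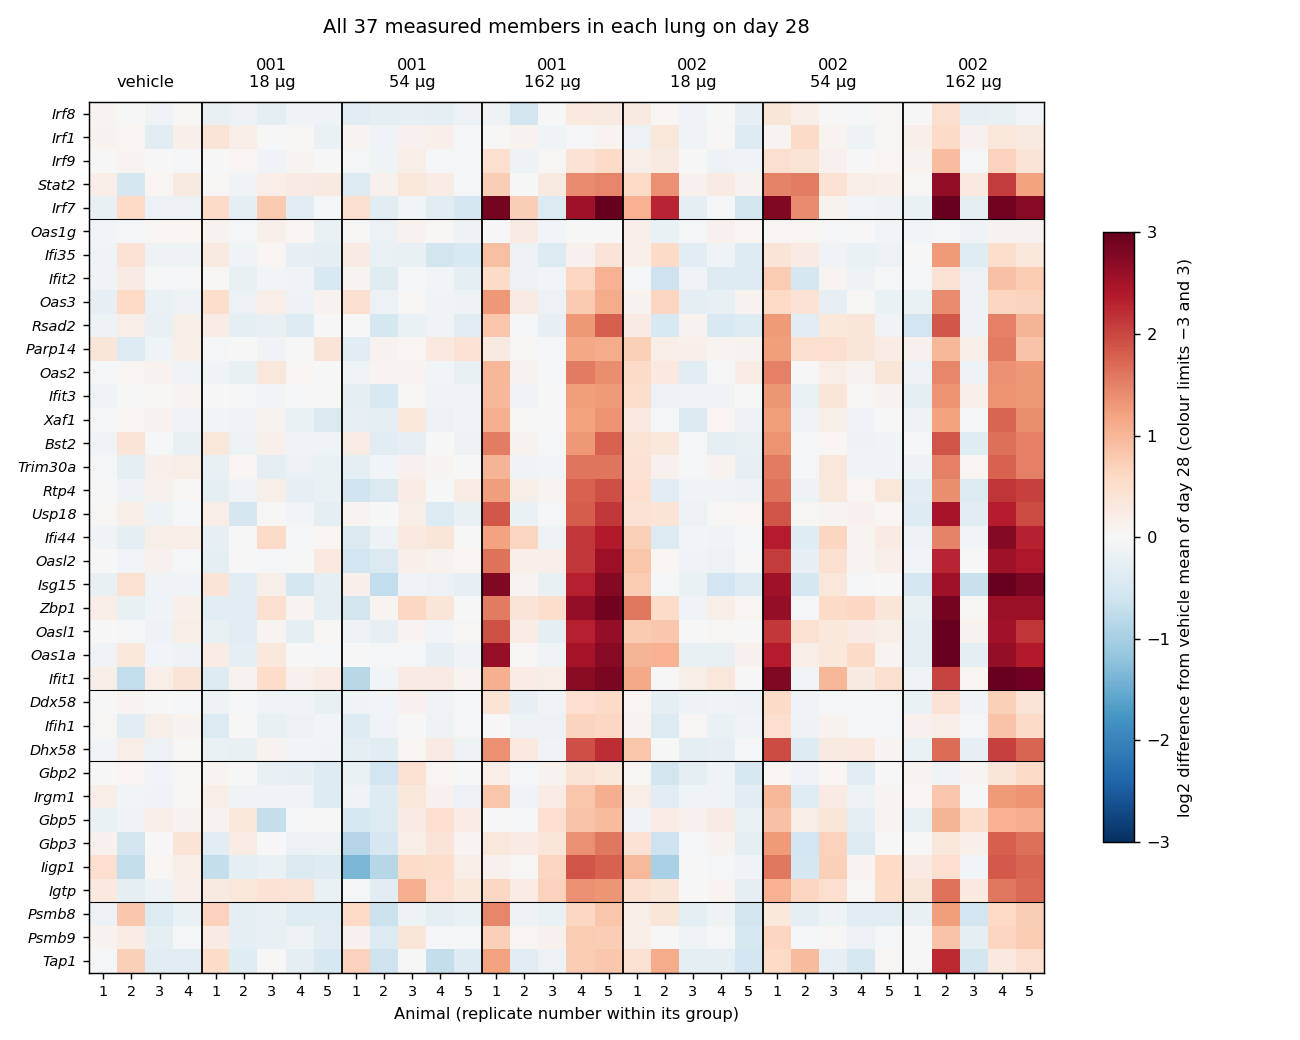
Log2 difference from the day 28 vehicle mean (colour, limited at -3 and 3) for the 37 members (rows, grouped by role) in each day 28 lung (columns, by group and replicate). Red columns across most rows appear for 3 lungs in each 162 µg group and for replicate 1 at 54 µg NRCWE-002.

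On day 1 the differences were smaller and more even. At 162 µg the median log2 fold change of the members was 0.24 (NRCWE-001) and 0.19 (NRCWE-002), and 31 and 30 of the 37 were above 0. The medians were 0.15 without replicate 4 of NRCWE-001 and 0.11 without replicate 2 of NRCWE-002. No member passed the unadjusted p as higher, beside 4.18 and 5.21% of all genes. Scores at 162 µg ranged from 0.06 to 0.69 for NRCWE-001 (mean 0.27 ± 0.27, SD, n = 5) and from -0.07 to 0.53 for NRCWE-002 (mean 0.22 ± 0.23, SD, n = 5), against -0.14 to 0.16 in vehicle lungs. Without the same 2 lungs the mean scores were 0.16 and 0.14. In the highest lung, NRCWE-001 replicate 4, 32 members were above every vehicle array and 11 were more than 2-fold above the vehicle mean, beside 22.4 and 2.08% of all genes. At 54 µg on day 1, 21, 19, 21, 6 and 5 members were above every vehicle array in the 5 lungs given NRCWE-001. With 54 µg NRCWE-002 the counts were 23, 11, 2, 15 and 3. In single lungs of these 2 groups 19.4 to 31% of all genes were above every vehicle array.

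Isg15 had the largest day 1 value. It measured -1.36, -1.19, -0.80, -1.21 and -1.75 in vehicle lungs, -0.68, -0.54, 0.31, 0.89 and -1.26 with 162 µg NRCWE-001, and -0.53, 0.69, 0.08, -0.44 and -1.42 with 162 µg NRCWE-002. In each exposed group 4 of 5 lungs were above all vehicle lungs. In single lungs of these 2 groups 18.6 to 24.5% of all genes were above all vehicle lungs. The log2 fold changes were 1.01 ± 0.52 (SE, adjusted p = 0.721, limma) and 0.94 ± 0.52 (SE, adjusted p = 0.613, limma). Only NRCWE-001 passed 2-fold.

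Rsad2 separated from vehicle on day 1 with both particles. Its vehicle lungs measured -0.12, -0.21, -0.08, -0.15 and -0.24, against 0.06, -0.02, 0.69, 1.20 and 0.02 with 162 µg NRCWE-001 and 0.15, 0.70, 0.47, 0.52 and 0.37 with 162 µg NRCWE-002. Such separation was seen in 1 member for NRCWE-001 (1.7% of all genes) and in 3 for NRCWE-002 (3% of all genes). The log2 fold changes of 0.55 and 0.60 were not called. Ifit1 measured 0.74 and 0.62, Zbp1 0.64 and 0.56, Irf7 0.55 and 0.51, and Oas1a 0.43 and 0.43.

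The 2 days were then set against each other. The log2 fold change at 162 µg was larger on day 28 than on day 1 in 34 members for NRCWE-001 and in 35 for NRCWE-002, with median differences of 0.55 and 0.59. In the test of that difference 0 members and 0% of all genes were called for either particle, and 5 and 8 members passed the unadjusted p as higher, beside 1.96 and 2.34% of all genes. Vehicle lungs themselves differed by a median of 0.17 between day 28 and day 1, with 31 members above 0. In that comparison 0 members and 0% of all genes were called, and 1 member was higher at the unadjusted p, beside 2.52% of all genes.

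**Figure D5:**
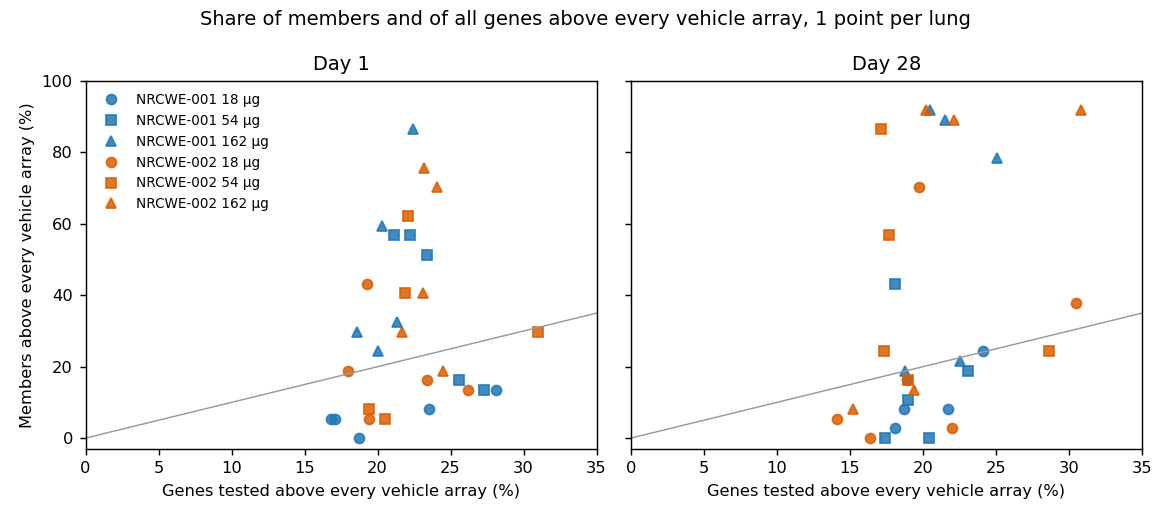
Percent of members above every vehicle array of the same day (y axis) against the percent of all genes tested above every vehicle array (x axis), with a point for each exposed lung, colour for particle, shape for dose and a line where both shares are equal. On day 28, 6 of the 10 lungs at 162 µg have 29 to 34 of the 37 members above vehicle and the other 4 have 3 to 8.

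The particles differ by the positive charge of NRCWE-002. At each matched dose and day the 37 genes were compared in limma, and 0 were called in any of the 6 comparisons. The share of all genes called was 0.00567, 0.0964 and 0% at 18, 54 and 162 µg on day 1, and 0.165, 0.0284 and 0% on day 28. At 162 µg on day 28 the difference, NRCWE-002 minus NRCWE-001, was -0.09 for Isg15 (95% interval -1.13 to 0.95) and 0.25 for Irf7 (95% interval -0.91 to 1.41), so the intervals were wide on both sides of 0. Median differences of the 37 members on day 28 were 0.06, 0.37 and 0.04 at 18, 54 and 162 µg.

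Averaged over the 3 doses, 2 of 37 members differed between the particles on day 28, where 6.73% of all genes did, and 4 were higher at the unadjusted p, beside 8.89% of all genes. Stat2 was higher with NRCWE-002 by 0.52 ± 0.17 (SE, adjusted p = 0.0487, limma) and Irf8 by 0.20 ± 0.06 (SE, adjusted p = 0.0454, limma). The largest differences were in Irf7 (0.52 ± 0.33, SE, adjusted p = 0.350, limma), Stat2 and Ifit1 (0.48 ± 0.27, SE, adjusted p = 0.269, limma). The share of members called was below that of all genes, and each of the 2 calls was lost under most other settings. Among the exposed lungs of day 28, both particles lay together only on slides 9 and 11. A particle difference thus can largely not be told apart from a slide difference. Of all genes 1186 were called, against 9 with slide as a fixed block, 38 with slide as a random block and 13 with scan day as a block. The Stat2 difference was 0.06, 0.26 and 0.03 in these 3 fits.

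For Irf8 the NRCWE-001 lungs lay below vehicle at the lower doses. Mean log2 ratios on day 28 were 1.73 ± 0.09 in vehicle lungs (SD, n = 4), 1.54, 1.47 and 1.70 at 18, 54 and 162 µg NRCWE-001, and 1.73, 1.85 and 1.72 at the same doses of NRCWE-002. All lungs at 18 and 54 µg NRCWE-001 were below all vehicle lungs, as in 1.55 and 0.618% of all genes. With arrays centred on the median without loess the Irf8 difference between particles was -0.0082.

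Slide 16 held replicate 2 of all 3 NRCWE-002 groups on day 28. On that slide Stat2 measured 2.09, 2.24 and 3.37 and Irf7 measured 0.71, -0.14 and 3.52 at 18, 54 and 162 µg, whereas Isg15 measured -0.85, -1.34 and 1.71. Without the 3 arrays of slide 16 the Stat2 difference was 0.26 (adjusted p = 0.312, limma).

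On day 1, averaged over doses, 0 members and 0.108% of all genes differed between the particles. No member passed the unadjusted p as higher (4.01% of all genes) or lower (4.86%). The largest differences were 0.23 ± 0.14 in Gbp5 (SE, adjusted p = 0.667, limma), 0.14 in Psmb8 and 0.12 in Oas3.

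Other genes of the interferon pathway were taken from a list of 54 ligands, receptors, transducers, inhibitors and class I pathway genes, of which 48 were tested. At 162 µg on day 28, 0 of the 48 were called, beside 0.0511% (NRCWE-001) and 0.00567% (NRCWE-002) of all genes. At the unadjusted p 7 were higher and 1 lower for NRCWE-001, beside 4.03 and 3.31% of all genes, and 14 were higher for NRCWE-002, beside 3.01%. In the test over the 3 doses of NRCWE-001 on day 1, Ifnar2, Socs3 and Psme2 were called, beside 0.879% of all genes. Averaged over doses on day 28, Irf5 (0.37), Mavs (0.25) and Ifnar2 (0.18) were higher with NRCWE-002 than with NRCWE-001 and Ifnl3 was lower (-0.15), where 6.73% of all genes were called. The limit from the slides applies to these genes too.

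For the ligands, the median log2 fold changes at 162 µg on day 28 were 0.09 and 0.10 over 6 genes, with 0 passing the unadjusted p. Ifnb1, a type I interferon, measured 0.09 ± 0.08 and 0.14 ± 0.08, and Ifng, made by T and NK cells, measured 0.12 ± 0.17 and 0.20 ± 0.17 (SE). Relative to the vehicle mean, Ifnb1 in the 5 lungs was 0.01, 0.06, -0.12, 0.30 and 0.19 with NRCWE-001. With NRCWE-002 it was 0.03, 0.21, 0.15, 0.34 and -0.04, against -0.04 to 0.07 in vehicle lungs. Ifng was -0.13, -0.33, 0.17, 0.47 and 0.40 with NRCWE-001. With NRCWE-002 it was -0.13, 0.22, -0.46, 0.59 and 0.77, against -0.36 to 0.38 in vehicle lungs. Replicate 1 at 54 µg NRCWE-002 measured 0.23 for Ifnb1 and 0.70 for Ifng. At 162 µg on day 28 Socs1, an inhibitor of JAK kinases, had log2 fold changes of 0.62 and 0.79 (NRCWE-001 and NRCWE-002). Those of Nlrc5, which drives class I genes, were 0.36 and 0.40, and neither gene was called. On day 1 the inhibitor Socs3 was higher by 0.67 ± 0.15 at 162 µg NRCWE-001 (SE, adjusted p = 0.0136, limma) and measured 0.57 with NRCWE-002 (adjusted p = 0.0501, limma).

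Markers of other cells were read beside these values. At 162 µg on day 28 no marker was called in any of the lists for plasmacytoid dendritic, T, NK and B cells, monocytes, neutrophils or alveolar macrophages. The shares of all genes called there were 0.0511% (NRCWE-001) and 0.00567% (NRCWE-002). Averaged per lung relative to vehicle, the 5 measured plasmacytoid dendritic cell markers were 0.16, -0.11, 0.23, 0.35 and 0.29 with NRCWE-001 and 0.05, 0.52, -0.06, 0.30 and 0.25 with NRCWE-002, against -0.11 to 0.11 in vehicle lungs. All 6 lungs with high interferon scores were above every vehicle lung in this average, as was 1 of the 4 others, and replicate 1 at 54 µg NRCWE-002 measured 0.42. Lungs at lower doses without a high score were also above every vehicle lung. At 18 µg on day 28 the average was 0.28, -0.07, 0.23, 0.20 and -0.17 with NRCWE-001. With 18 µg NRCWE-002 it was 0.72, 0.36, 0.07, 0.20 and -0.07, so it did not single out the lungs with high scores. At 162 µg T cell markers averaged 0.02, 0.0042, -0.11, 0.35 and 0.36 with NRCWE-001 and -0.02, 0.20, -0.07, 0.04 and 0.33 with NRCWE-002, against -0.24 to 0.16 in vehicle lungs, and the 4 lungs above vehicle were among the 6 with high scores. At 54 µg NRCWE-002 they averaged 0.37, -0.14, 0.08, 0.10 and 0.24, where only replicate 1 had a high score. Monocyte markers at 162 µg averaged 0.55, -0.14, 0.18, 0.38 and 0.38 with NRCWE-001, against -0.10 to 0.13 in vehicle lungs. With NRCWE-002 they averaged 0.04, 0.05, 0.02, 0.19 and 0.05. At 162 µg on day 1 neutrophil markers ranged from 0.03 to 1.31 with NRCWE-001, where 2 of 6 were called, beside 0.624% of all genes. With NRCWE-002 they ranged from 0.04 to 0.86, where 0.59% of all genes were called. Between the particles at that dose and day 0% of all genes were called. The part of these cells in the member values was not tested.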

How the data were processed

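RNA from 69 mouse lungs was hybridised to 2-colour Agilent arrays, and the authors read the scans with Agilent Feature Extraction 11.0.1.1. The deposited series table holds log2 ratios of lung over reference after the authors' LOWESS normalisation. These were the main values, and correlated at 0.9875 to 0.9955 with log2 ratios rebuilt from the deposited intensity columns by normexp (offset 50) and loess. A probe was kept when well above background in the lung channel on at least 4 arrays. A gene was the median of its kept probes. One linear model of 14 group means over 69 arrays was fitted with limma 3.58.1 (R 4.3.3), with Benjamini-Hochberg adjustment over 17628 genes and a threshold of 0.05. The script was tested on simulated data. The LOWESS step centres the log2 ratios of each array on 0 across intensities, so a shift shared by most genes would not be seen.

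The members and lists were chosen with earlier results of these data known. Genes given with the value of each animal were those called against vehicle or by dose, and the 3 with the largest log2 fold change at 162 µg for each particle and day. The 3 with the largest particle difference on each day were named too. Stat2, Irf8, Igtp and the pathway genes Socs1, Nlrc5, Ifnb1 and Ifng were described further after their values were seen. Alternatives changed background correction, normalisation, probe filter, probe choice, slide or scan day as a block, and left out single animals. Promoters came from RefSeq (GRCm38.p6).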

Additional observations from a re-analysis of the deposited data

Results flagged for a closer look

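A total of 98 checks were made for a sample far from the others, by the gap to the nearest lung over the whole range of the group. They covered the interferon score and 6 genes in each of the 14 groups of 4 or 5 lungs. The checks share lungs and are not independent. A total of 6 passed the limit. Chance alone gives about 1 in 20, and 6 of 98 is close to that rate. In the group given 54 µg NRCWE-002 on day 28, replicate 1 stood apart in the interferon score with a gap of 0.814 of the range (1.28 against 0.01 to 0.24), in Isg15 with 0.72 (1.72 against -1.34 to -0.48), in Zbp1 with 0.747 (2.62 against -0.09 to 0.60) and in Oas1a with 0.778 (1.45 against -0.82 to -0.31). These values come from the same array and are not separate evidence. In vehicle day 28, replicate 2 stood apart in Irf7 with 0.941 (-0.97 against -1.79 to -1.74) and in Oas1a with 0.846 (-0.58 against -1.03 to -0.96). Its array lay on slide 3.

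The difference between the particles on day 28, averaged over 3 doses, passed the test in Irf8 (0.20) and in Stat2 (0.52). Values without the arrays concerned are given with the other settings.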

How the results depend on the processing

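The median log2 fold changes of the members and the group scores kept their direction under every setting run, which covered 162 µg of each particle on each day and 54 µg NRCWE-002 on day 28. Counts of called members were less steady. For the particle difference on day 28 (2 called), the count was 1 with normexp and with no filter (Irf8 in each), 1 with median centring (Gbp2, where 4430 genes were called in all), and 0 with processed signals, the lung channel alone, the brightest probe, slide as a fixed or random block, scan day, without slide 16, without slide 3, and with arrays of the same day alone. Leaving out single animals gave 0 to 2. Under median centring the Irf8 difference was -0.0082. For the dose effect of NRCWE-001 on day 28 (0 called), the count was 1 with processed signals, the stricter filter, the brightest probe and scan day, 10 with the lung channel alone (287 genes in all), 9 with slide as a random block (594), 7 without slide 16 (309), and 0 to 17 when single animals were left out (314 and 282 genes in the fits with 17). For NRCWE-001 on day 1 it was 1 with the brightest probe, slide as a fixed or random block, scan day and without slide 16, 3 with same-day arrays, and 0 to 1 without single animals. At 18 µg NRCWE-001 on day 1 the random block gave 1, and at 162 µg NRCWE-002 on day 1 the lung channel alone gave 1. Leaving out animals gave 0 to 2 for the dose effect of NRCWE-002 on day 28, 0 to 8 at 162 µg NRCWE-001 (8 without replicate 3) and 0 to 16 at 162 µg NRCWE-002 (16 without replicate 1), where the lungs left out were those near vehicle. The cause was not tested. Leaving out slide 16 or slide 3 and fitting same-day arrays alone were chosen after seeing the data. No paired analysis was possible because the labels give no shared replicate numbers, and arrays of a shared slide were compared through the slide blocks instead. The spread between lungs and 4 or 5 arrays per group limit what could be called.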
